A study of Homo sapiens with 6 samples.

Results

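The SLC25 genes encode the mitochondrial carrier family, and 42 of them were examined in PC-3 cells with and without a TTP transgene. Members were all genes of the deposited table whose symbol begins with SLC25A and whose row carries a protein-coding RefSeq name, leaving out SLC25A11, SLC25A12 and SLC25A13. They were 42 of 18984 such gene symbols, and 36 of the 42 had a mean of at least 1 FPKM over the groups and a value above 0 in both. FPKM is the number of fragments per kilobase of transcript, scaled to the number of mapped fragments, so that levels can be compared between genes of different length.

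Both groups were PC-3, a human cell line grown out of a bone metastasis of a prostate adenocarcinoma. All cells carried the pRetroX-Tet-On-Advanced retrovirus, which supplies the rtTA2 transactivator, and had been selected with G418. The tdTom group carried pRetroX-Tight-pPGK-tdTomato in addition and the TTP-tdTom group pRetroX-Tight-TTP-pPGK-tdTomato, in which the Dox-responsive promoter drives TTP, and both were sorted for tdTomato. All 6 samples, 3 of each group, were collected after 4 hours in 300 ng/ml Dox, so that both groups had received the drug and neither was an untreated control. TTP is an RNA-binding protein that delivers mRNAs with AU-rich 3′UTRs to decay, and the comparison asks which transcripts differ once it is induced.

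The deposited table gives 1 FPKM value per group, combined by the authors from 3 samples. No spread between replicates and no count of fragments can be read from these FPKM values, so no test was run, and each difference below is a ratio of them, given without an error. The labels do not say whether the 3 samples of a group came from separate cultures, and each group was a sorted population of 1 cell line. At ZFP36, the gene of TTP, tdTom had 5.56 FPKM and TTP-tdTom 5.54, so that the row for the induced gene did not separate the groups, and their names below are those of the labels. Whether transgene fragments were counted there was not tested. Of 5 epithelial markers, KRT8, KRT18, KRT19 and EPCAM lay between 15.1 and 98.2 FPKM in both groups, whereas CDH1 was under 0.4 FPKM. KLK3, a marker of prostate luminal cells, was 1.12 FPKM in tdTom and 0.68 in TTP-tdTom, and the leukocyte marker PTPRC and the endothelial marker PECAM1 stayed under 1 FPKM. The fibroblast marker COL1A1 had 4.34 FPKM in tdTom and 4.56 in TTP-tdTom.

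Mitochondrial carriers are small proteins with repeated pairs of membrane helices that sit, with a few exceptions, in the inner mitochondrial membrane. They exchange ADP for ATP, bring in phosphate, carboxylates, amino acids and cofactors, and thus connect the enzymes of the matrix with the cytosol. Each carrier is encoded by its own gene, and several substrates are served by closely related carriers that differ in tissue and regulation.

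TTP is known to bind the AU-rich heptamer UAUUUAU, and the 3′UTRs of 8 of the 11 carriers that were at least 1.5-fold lower in TTP-tdTom hold it, as do those of 7 of the other 25 carriers. Of all genes at least 1.5-fold lower, 60.4% hold it. The sites of 7 of these 8 carriers are shown so that the context of each heptamer can be read beside the levels that follow. Those of SLC25A32, which holds 3 copies, are not shown. Each line gives the copy nearest to the stop codon with 10 bases on either side, 5′ to 3′, with the heptamer in capitals, as RNA from the GENCODE release 29 transcript.

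SLC25A24: gaugaaauuaUAUUUAUuucagugggc
SLC25A30: acagggaacaUAUUUAUuugggucucu
SLC25A40: ggaaaauucuUAUUUAUgaauaaagua
SLC25A17: ggauaugagcUAUUUAUuuugugaaau
SLC25A16: gacugugaaaUAUUUAUuaauauagau
SLC25A36: ucacuaaaaaUAUUUAUucggauuuga
SLC25A14: cucauuaaagUAUUUAUuggcagaauc

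All 7 lie in a 3′UTR and within 1 exon. On GRCh38, the build of that annotation, they are at chr1:108136055-108136081 on the minus strand for SLC25A24, chr13:45394530-45394556 minus for SLC25A30, chr7:87834515-87834541 minus for SLC25A40 and chr22:40770268-40770294 minus for SLC25A17. Those of SLC25A16, SLC25A36 and SLC25A14 are at chr10:68482500-68482526 minus, chr3:140979321-140979347 plus and chrX:130373333-130373359 plus. Their heptamers begin 582, 1428, 1718, 550, 916, 2878 and 393 bases after the stop codon, in the order of the lines.

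The ratios of the family ran from more than 3-fold lower in the TTP-tdTom group to slightly higher. Of the 36 carriers with a mean of at least 1 FPKM, 7 were at least 2-fold lower in TTP-tdTom, against 8.26% of the 11616 genes that met the same minimum. Lower by at least 1.5-fold were 11 of the 36, against 22.9% of all genes. None of the 36 was 2-fold or 1.5-fold higher in the row used for it, and among all genes 0.775% and 1.74% were. The exception by another choice of rows was SLC25A27, whose log2 fold change was 1.61 with all its rows summed. The median log2 fold change of the 36, TTP-tdTom over tdTom, was -0.24 and that of all genes was -0.24 as well. Below 0 were 30 of the 36 carriers, and 9391 of the 11616 genes. The share of the 36 at least 2-fold lower was 19.4%. Relative to the median of all genes, 18 of the 36 were below 0, and 3 were still at least 2-fold lower, against 3.68% of all genes. These were SLC25A24, SLC25A30 and SLC25A43, with differences from that median of -1.52, -1.18 and -1.08 on the log2 scale.

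**Figure D1:**
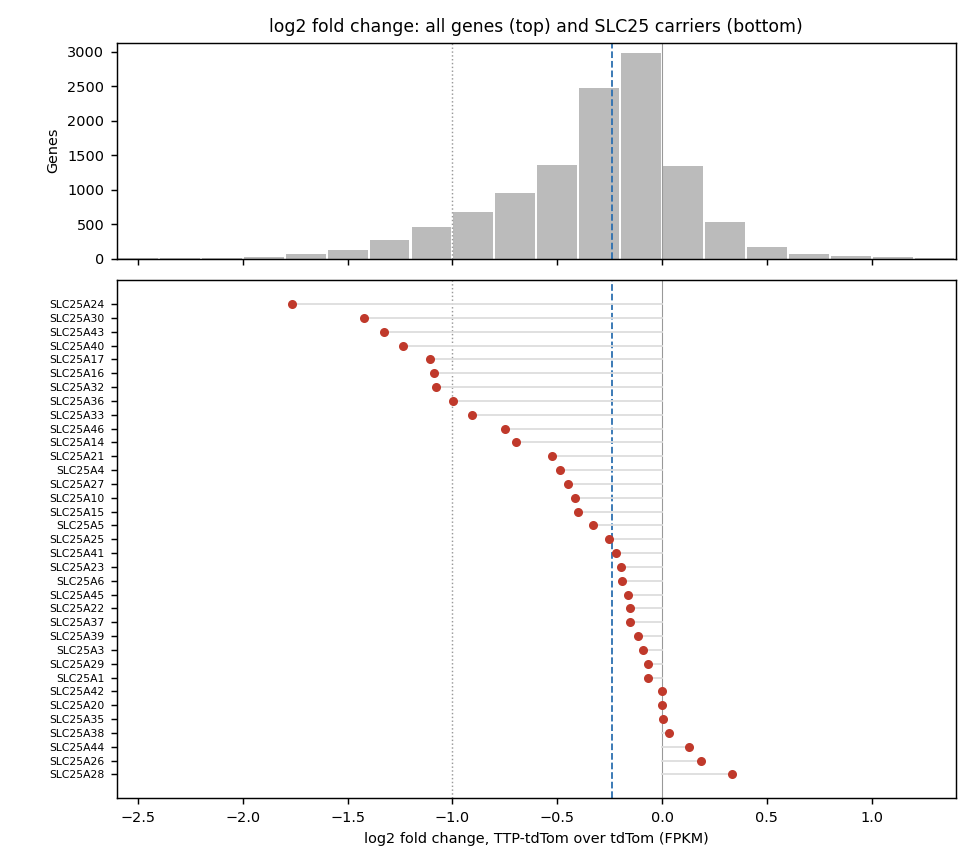
The top panel counts all genes with a mean of at least 1 FPKM by log2 fold change (TTP-tdTom over tdTom, bins of 0.2; 67 of 11616 genes lie outside the range drawn), and the bottom panel gives 35 carriers, 1 point each. The dotted line marks -1 and the dashed line the median of all genes at -0.24; 7 carriers lie left of the dotted line and SLC25A28 is farthest to the right at 0.33.

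SLC25A24 had the lowest ratio of the family. It is an ATP-Mg/phosphate carrier with calcium-binding EF-hands in front of its membrane part, through which cytosolic calcium sets the adenine nucleotide content of the matrix. The span listed for its row on GRCh37 is chr1:108675916-108744201. SLC25A24 had 11.9 FPKM in tdTom and 3.51 in TTP-tdTom, 3.40-fold lower, a log2 fold change of -1.77. Of all genes, 0.517% had a lower log2 fold change. Its relatives with the same transport and the same calcium-binding domain did not share the size of this difference. SLC25A23 had 13.5 and 11.8 FPKM, a log2 fold change of -0.20, and SLC25A25 had 3.80 and 3.19 FPKM, a log2 fold change of -0.25. SLC25A24 made up nearly as much of the summed level as SLC25A23 in tdTom, and SLC25A23 alone held 63.8% of the sum in TTP-tdTom, against 46.2% in tdTom. The row of SLC25A41, the remaining carrier of the class, also names KHSRP, an abundant RNA-binding protein gene, and its 197.6 and 169.7 FPKM cannot be given to the carrier. Of the other carriers at least 2-fold lower, the spans listed on GRCh37 are chr13:45967366-45992582 for SLC25A30, chrX:118533258-118588556 for SLC25A43 and chr7:87463212-87538864 for SLC25A40. The span is chr22:41165639-41215392 for SLC25A17, chr10:70237252-70288507 for SLC25A16 and chr8:104399544-104455680 for SLC25A32. Such a span can be shared by several rows, as it is for SLC25A16, and can reach beyond the gene named.

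ADP/ATP carriers, the most abundant of the family, bring ADP into the matrix and ATP out of it. SLC25A5 had the highest level of any carrier, 546.3 FPKM in tdTom and 434.5 in TTP-tdTom, a log2 fold change of -0.33. SLC25A6 had 71.6 and 62.8 FPKM, and SLC25A4, the form of heart and skeletal muscle, 3.39 and 2.42, log2 fold changes of -0.19 and -0.48. Summed over these 3 genes, TTP-tdTom stood at 80.4% of tdTom, with SLC25A5 at 87.9% and 87.0% of the sum. These genes are close in sequence and have processed copies elsewhere in the genome, so that fragments may have been divided among them. SLC25A31, the form known from testis, was at 0.15 and 0.22 FPKM. SLC25A3, which imports the phosphate needed for ATP synthesis, had 121.9 and 114.3 FPKM, a log2 fold change of -0.09.

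Several nucleotide and cofactor carriers were lower. Of 7 with a mean of at least 1 FPKM, 3 were at least 2-fold and 5 at least 1.5-fold lower, against 8.26% and 22.9% of all genes, and their median log2 fold change was -0.999. SLC25A16, a carrier assigned to coenzyme A, had 20.4 FPKM in tdTom and 9.57 in TTP-tdTom (log2 fold change -1.09). SLC25A42, which also imports coenzyme A, had 1.09 FPKM in both groups. Because SLC25A16 made up 94.9% of the summed level of this pair in tdTom, the sum in TTP-tdTom was 49.7% of that in tdTom. SLC25A17, a carrier of cofactors in the peroxisome membrane, had 15.3 and 7.10 FPKM (log2 fold change -1.11). SLC25A32, the carrier of folate and FAD, had 30.9 and 14.6 FPKM (log2 fold change -1.08), and was the only carrier with a mean of at least 20 FPKM among those 2-fold lower. The pyrimidine nucleotide carriers, which supply the matrix with precursors for mitochondrial DNA and RNA, were close to each other in their ratios. SLC25A36 had 13.7 and 6.85 FPKM (log2 fold change -0.999, 1.998-fold and thus just short of 2-fold), and SLC25A33 had 5.14 and 2.74 FPKM (log2 fold change -0.91). Centred on the median of all genes, SLC25A16, SLC25A17 and SLC25A32 were each short of 2-fold, at -0.85, -0.87 and -0.84. The summed level of the pyrimidine nucleotide carriers SLC25A36 and SLC25A33 in TTP-tdTom was 50.9% of that in tdTom.

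**Figure D2:**
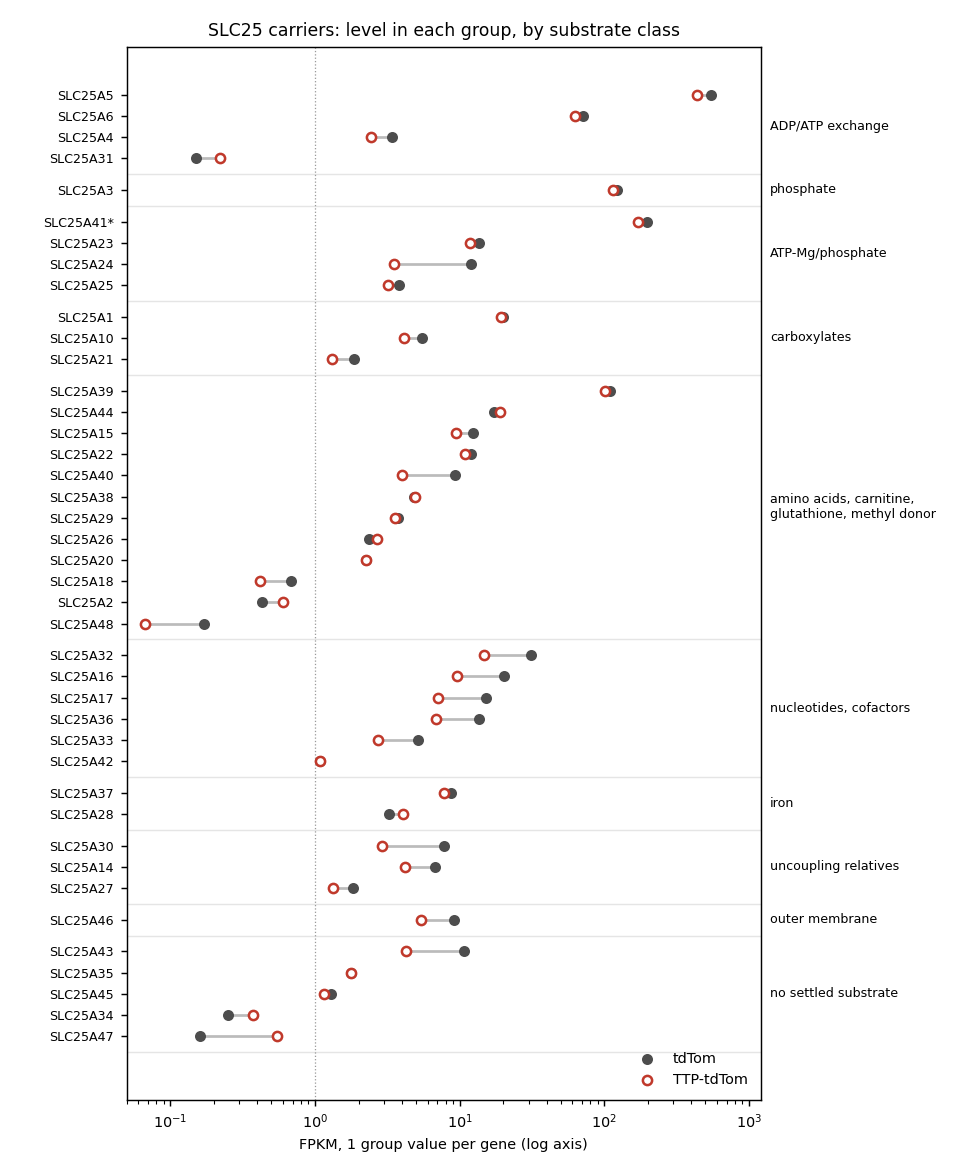
FPKM of 41 members on a log axis, by substrate class, with 1 value per group (filled, tdTom; open, TTP-tdTom) and no error. The dotted line marks 1 FPKM, and the row of SLC25A41 (asterisk) also holds KHSRP. Long bars join the values of SLC25A24, SLC25A40, SLC25A30, SLC25A43 and 5 of the nucleotide and cofactor carriers, while those of SLC25A3 and SLC25A39 nearly coincide.

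SLC25A40 stood lowest among the carriers of amino acids and related compounds. Of 9 with a mean of at least 1 FPKM, 1 was 1.5-fold lower, against 22.9% of all genes, and their median log2 fold change was -0.07, against -0.24. SLC25A40 together with SLC25A39 is required for the glutathione of the matrix. It had 9.33 FPKM in tdTom and 3.96 in TTP-tdTom, a log2 fold change of -1.23. SLC25A39 had 109.1 and 100.8 FPKM, a log2 fold change of -0.11, and with 92.1% of the pair's level in tdTom it left the pair's sum in TTP-tdTom at 88.5% of that in tdTom. The ornithine carrier SLC25A15 had 12.4 and 9.39 FPKM (log2 fold change -0.40) and the glutamate carrier SLC25A22 12.0 and 10.8, in a row that also names PIDD. SLC25A29, a carrier of basic amino acids, had 3.76 and 3.58 FPKM. The carnitine and acylcarnitine carrier SLC25A20, which admits fatty acids for oxidation, had 2.25 FPKM in both groups. Slightly above 0 were the log2 fold changes of SLC25A38, a glycine carrier needed for heme synthesis (0.03), SLC25A44, a carrier of branched-chain amino acids (0.13), and SLC25A26, the carrier of S-adenosylmethionine (0.18).

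Among the carboxylate carriers, the citrate carrier SLC25A1, which exports citrate for fatty acid and sterol synthesis, had 20.03 FPKM in tdTom and 19.2 in TTP-tdTom. The dicarboxylate carrier SLC25A10 had 5.48 and 4.11 FPKM, and the oxodicarboxylate carrier SLC25A21 had 1.87 and 1.30, log2 fold changes of -0.42 and -0.52. Of the 3 carriers of this class, 0 were 1.5-fold lower, against 22.9% of all genes. The mitoferrins bring iron to the matrix for heme and iron-sulphur clusters. SLC25A37 had 8.71 and 7.83 FPKM, while SLC25A28 had 3.23 and 4.07 FPKM, the highest log2 fold change of the 36 at 0.33. The sum of the pair in TTP-tdTom was 99.6% of that in tdTom.

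Relatives of the uncoupling proteins had log2 fold changes below 0, to different degrees, with SLC25A27 dependent on the choice of row. SLC25A30 had 7.77 FPKM in tdTom and 2.90 in TTP-tdTom (log2 fold change -1.42), the second lowest ratio of the family. Its closest relative SLC25A14 had 6.78 and 4.19 FPKM (log2 fold change -0.69), and SLC25A27 had 1.82 and 1.33 (log2 fold change -0.45). A further row of SLC25A27 was listed at 0 in tdTom and at 5.50 FPKM in TTP-tdTom, and its rows summed gave a log2 fold change of 1.61. Summed, SLC25A30 and SLC25A14 stood in TTP-tdTom at 48.7% of tdTom, and SLC25A30 went from 53.4% of the sum to 40.9%. SLC25A46, an unusual member in the outer membrane that takes part in mitochondrial fusion and fission, had 9.13 and 5.43 FPKM (log2 fold change -0.75). SLC25A43, whose substrate is not settled, had 10.6 and 4.25 FPKM (log2 fold change -1.32), whereas SLC25A35 and SLC25A45, also without a settled substrate, differed by a log2 fold change of at most 0.16 in size.

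**Figure D3:**
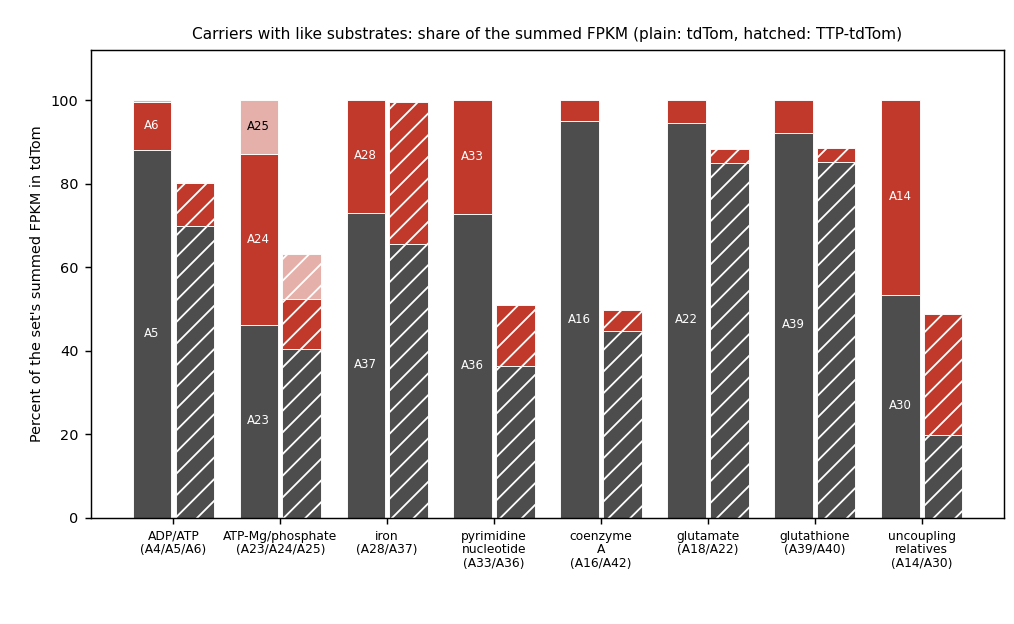
Carriers with like substrates, each set scaled to its summed FPKM in tdTom (plain bars, 100%); hatched bars give TTP-tdTom on the same scale, and colours stand for single genes. The hatched bars end near 50% for the coenzyme A, pyrimidine nucleotide and uncoupling sets and between 80.4% and 99.6% for the ADP/ATP, iron, glutamate and glutathione sets. The uncoupling set is SLC25A14 and SLC25A30, without SLC25A27. The glutamate set is SLC25A22, whose row also names PIDD, and SLC25A18, which has a mean under 1 FPKM. For the ATP-Mg/phosphate carriers SLC25A23, SLC25A24 and SLC25A25 the sum in TTP-tdTom was 63.2% of that in tdTom. The bars carry no error.

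The 6 members under a mean of 1 FPKM were SLC25A2, SLC25A18, SLC25A31, SLC25A34, SLC25A47 and SLC25A48. Their values lay between 0.0668 and 0.683 FPKM, and no fold change is given for them. Levels within the family were uneven. Leaving out the row shared with KHSRP, SLC25A5, SLC25A3, SLC25A39 and SLC25A6 together made up 73.9% of the summed FPKM of 35 carriers in tdTom and 77.2% in TTP-tdTom, and 0 of these 4 were 1.5-fold lower, against 21.2% of all genes with a mean of at least 20 FPKM. Lower in tdTom than these 4, in falling order, were SLC25A32, SLC25A16, SLC25A1 and SLC25A44. Neighbours in this order cannot be separated, as the group values carry no spread. RNA was taken from whole cultures, so that fewer cells with a transcript and less of it in each cell cannot be told apart.

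The transcripts of the carriers were described by base composition and 3′UTR length. They were matched for 36 of 36 carriers, and for 11467 of the 11616 genes. The 11 carriers at least 1.5-fold lower had a median GC content of 41.2% (34.2% to 49.4%), and the other 25 had 56.0% (39.5% to 65.9%). Among all genes the medians were 41.0% and 51.3%. The longest matched 3′UTR had a median of 2617 bases in the 11 and 1120 in the 25, against 1908 and 1010 bases over all genes. The median AU content of those 3′UTRs was 62.5% and 46.0%, against 65.4% and 54.8% over all genes. SLC25A21, not 1.5-fold lower, had a GC content of 39.5%, a 3′UTR AU content of 71.0% and 1 heptamer.

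The heptamer UAUUUAU, sought on the mRNA strand with overlapping matches counted, was present in 8 of the 11 lowered carriers and in 7 of the other 25. Over all genes it was present in 60.4% of those at least 1.5-fold lower and in 26.9% of the rest. At a minimum mean of 5 FPKM, which leaves 22 carriers, 10 were 1.5-fold lower. The heptamer was then present in 8 of these 10 and in 2 of the other carriers. At this minimum the shares of all genes lowered 1.5-fold and holding the heptamer were not taken, so these counts have no background beside them. Among 3′UTRs of like length, taken as deciles over all genes, 34.1% held it on average at the lengths of the 36 carriers, and 15 of the 36 carriers held it. This average was not taken apart for the 11 and the other 25, whose median 3′UTR lengths were 2617 and 1120 bases. The part of 3′UTR length in their difference was not tested. SLC25A32 held 3 copies, SLC25A30, SLC25A17, SLC25A16 and SLC25A36 held 2 and SLC25A24, SLC25A40 and SLC25A14 held 1. SLC25A43, SLC25A33 and SLC25A46 were lower with 0 copies in 3′UTRs of 1413, 2678 and 1002 bases. Conversely, SLC25A25 held 3 copies at a log2 fold change of -0.25, and SLC25A38 held 1 copy at 0.03. A match to these letters is a description of the annotated 3′UTR, and which 3′UTR PC-3 cells use was not tested.

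Across the 36 carriers, log2 fold change went with transcript GC content (Pearson's r 0.70, Spearman's rho 0.69), as it did more loosely across 11467 genes (r 0.39, rho 0.49). Over the carriers, Spearman's rho was -0.58 with the AU content of the 3′UTR, -0.56 with the number of heptamers and -0.375 with the length of the 3′UTR. Over all genes these values were -0.48, -0.33 and -0.23. With the mean FPKM, rho was -0.12 over the carriers and -0.16 over all genes. These are descriptions over genes measured in the same libraries, and GC content and 3′UTR AU content were themselves tied at a Pearson's r of -0.92, so that their parts cannot be told apart. In the deciles of GC content over all genes, the median log2 fold change ranged from -0.75 in the lowest decile to -0.09 in the highest. Set against the median of its own decile, SLC25A24 was lower by -1.19, SLC25A43 by -1.12 and SLC25A30 by -0.85, while SLC25A36 was lower by -0.25. SLC25A28 was above its decile by 0.44. Over the 36 carriers this difference had a median of -0.09, and 24 were below their decile. The part of base composition in these differences was not tested.

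**Figure D4:**
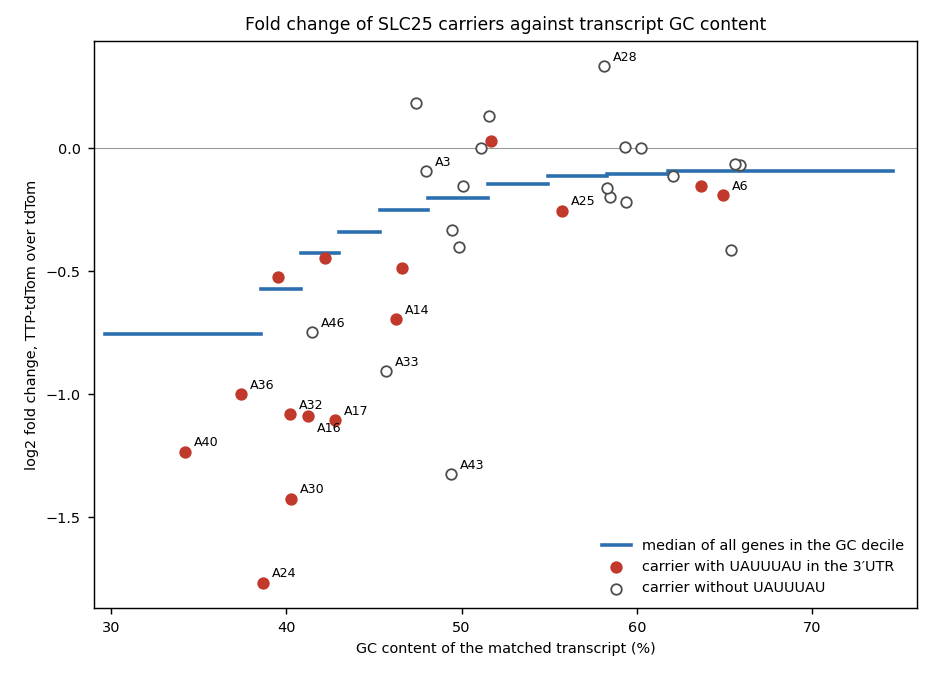
Log2 fold change (TTP-tdTom over tdTom) of 35 carriers against the GC content of the matched transcript; filled points have UAUUUAU in the 3′UTR and blue bars are the medians of all genes in 10 GC deciles. The 11 labelled points below -0.6 all lie under 50% GC and below the bar of their decile. Only the bar of the lowest decile is itself below -0.6, at -0.75. In every other decile, points picked below -0.6 lie under the bar by that choice.

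Other mitochondrial transport genes, set apart from the members by symbol only, were looked at as a list of 28. It includes UCP1, UCP2, UCP3, MTCH1 and MTCH2. Of the 28 genes, 26 had a mean of at least 1 FPKM. Of these, 2 were at least 2-fold lower (7.69%) and 5 at least 1.5-fold lower, with a median log2 fold change of -0.19. Over all genes 8.26% and 22.9% were, with a median of -0.24. The 2 were MICU2, listed as EFHA1, a calcium sensor of the mitochondrial calcium uniporter, with 14.8 FPKM in tdTom and 6.34 in TTP-tdTom, and ABCB10, a transporter of the inner membrane, with 8.89 and 4.07. MPC1, listed as BRP44L, a subunit of the pyruvate carrier, had 5.64 and 2.94 FPKM, and its partner MPC2, listed as BRP44, had 12.9 and 9.37. The serine carrier SFXN1 had 24.8 and 14.1 FPKM. VDAC2, a channel of the outer membrane, had 665.7 and 372 FPKM, whereas VDAC1 had 215.8 and 190.3. The pore of the uniporter, MCU, had 6.48 and 6.002 FPKM. The shares of this list and of the SLC25 carriers were not tested against each other.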

How the data were processed

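Transcripts of PC-3 cells were sequenced by the authors in 3 tdTom and 3 TTP-tdTom samples. According to the methods and the submitters' processing notes, strand-specific paired-end reads were aligned to Hs37D5 (GRCh37 with decoy sequence) with TopHat2 2.0.13, and expression was calculated with Cufflinks 2.2.1. The deposited FPKM values are the authors' combined values per group and locus, 1 for each of 406165 rows, and depth per sample is unknown. The table also holds the authors' own fold changes, test statistics, p-values and q-values for this comparison, which were not used.

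Each gene symbol was represented by its row with the most RefSeq names, then the highest FPKM. Ratios are TTP-tdTom over tdTom without a pseudocount, over symbols with a protein-coding RefSeq name, a mean of at least 1 FPKM and both values above 0. Lowered means at least 2-fold or 1.5-fold lower. All members above the minimum mean but 1, which is counted and otherwise not reported here, were named within substrate classes from textbook knowledge. Members and lists were chosen with earlier results of these data known. Start positions are counted from 1. For 3′UTRs, GENCODE release 29 transcripts were matched by RefSeq name, otherwise by symbol, and the longest 3′UTR was taken. Protein sequences, and with them identities between carriers, were not analysed here. The functions were tested on simulated data. Alternatives were pseudocounts, minimum FPKM, scaling, and the choice of row. Python 3.11.15, numpy 2.4.6, pandas 2.3.3 and matplotlib 3.10.9 were used.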

Additional observations from a re-analysis of the deposited data

How the results depend on the processing

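No paired analysis was possible because each group has 1 combined value, and no replicate could be left out. Of the 36 carriers, 7 were at least 2-fold lower with pseudocounts of 0.1 and 1 and after rescaling to the same FPKM sum, against 8.21%, 5.76% and 6.97% of all genes. With the row of highest FPKM 7 of 35 were, and with rows of 1 symbol only 7 of 34, against 8.36% and 8.69%. Centred on the median of all genes, which adds 0.24 to every log2 fold change, 3 remained 2-fold lower (SLC25A24, SLC25A30 and SLC25A43, against 3.68% of all genes) and the median of the carriers was 0.0045; SLC25A16, SLC25A17, SLC25A32 and SLC25A40 then lay between -0.99 and -0.84. At a minimum mean of 5 FPKM, which leaves 22 carriers, 7 were 2-fold lower, against 9.41% of all genes, and the median was -0.36, against -0.27 over all genes. Without a minimum, SLC25A48 (0.17 and 0.07 FPKM) joined them, giving 8 of 42 against 8.46% of all genes, and rho with GC content was 0.53. Summing all rows of a symbol, chosen after seeing the data, left 6 of 37, against 8.33% of all genes, as SLC25A16 came to -0.93, and put SLC25A27 at 1.61, since a further row went from 0 to 5.50 FPKM. With the row of highest FPKM, that row replaced the main one and SLC25A27 had no ratio. In the main setting 11 of 36 were 1.5-fold lower, against 22.9% of all genes. The number was 9 of 36 when centred, 10 of 36 with a pseudocount of 1 and 10 of 22 at 5 FPKM. It was 13 of 42 without a minimum, and 11 in each of the other alternatives. The share of all genes at 1.5-fold was taken for the main setting only.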

Other observations

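SLC25A43 and SLC25A5 are neighbours on the X chromosome of GRCh37. Their rows list spans from 118533258 to 118588556 and from 118599996 to 118605359, with 11439 bases between these spans. The log2 fold changes of SLC25A43 and SLC25A5 were -1.32 and -0.33. The antisense transcript SLC25A5-AS1, in a row with the coordinates of SLC25A5, had 4.29 FPKM in tdTom and 3.86 in TTP-tdTom.

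A further 3 carriers stand in the table under older symbols and are not among the 42. MCART1, now SLC25A51, a mitochondrial NAD carrier, had 7.29 FPKM in tdTom and 6.27 in TTP-tdTom (log2 fold change -0.22). MCART6, now SLC25A53, had 7.40 and 4.58 (log2 fold change -0.69), and MCART2, now SLC25A52, was under 1 FPKM in both groups.

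For 10 of the 42 members the table holds more than 1 row. The further rows of SLC25A16 had 0.57 and 0.14 FPKM in tdTom and 0.84 and 0.61 in TTP-tdTom, and a second row of SLC25A15 had 0.55 and 1.34, in both cases in the direction opposite to the main row.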
